A study of Mus musculus with 6 samples.

Results

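Cd36, Fabp3, Acsl1, Cpt1a, Cpt1b, Cpt2, Acadvl, Acadl, Acadm and Hadha are 10 genes that take long-chain fatty acids from the cell surface through the first steps of mitochondrial beta-oxidation. They were taken by symbol from the 38293 genes of a table of raw counts, as members of a pathway and with earlier results of these data known, and all 10 were among the 14746 genes that passed the filter on low counts. The libraries came from hearts of adult C57BL/6J mice 14 days after the LAD artery was permanently occluded, with 3 WT and 3 Zeb2 cKO samples. The paper compares Zeb2 fl/fl mice, whose Zeb2 alleles are floxed, with Zeb2 cKO mice, which carry the same floxed alleles and Cre under the Myh6 promoter, active in cardiomyocytes. The labels call the control group WT, and whether it was free of Cre is not given in the sources used here. Both groups had the infarct, so no uninjured heart enters the comparison. The labels name the border of the infarct as the tissue, whereas the methods name the remote zone. The labels do not say that the samples are separate animals, so p-values measure the spread between these samples.

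Heart muscle draws most of its energy from fatty acids. CD36 admits them at the plasma membrane, FABP3 carries them through the cytosol and ACSL1 activates them to acyl-CoA. CPT1 and CPT2 pass the acyl group across the mitochondrial membranes as a carnitine ester. The dehydrogenases ACADVL, ACADL and ACADM then begin each round of shortening on chains of different length, and HADHA, the alpha subunit of the trifunctional protein, carries out the next steps on long chains. Oxidation of fatty acids is known to decline in failing hearts. The comparison asks how the transcripts of these steps stood in infarcted hearts after loss of Zeb2, a zinc finger repressor, from cardiomyocytes.

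The library of WT replicate 2 stood apart from the other 5, so the log2 fold changes and list counts below are given with it and without it. Values are CPM, counts scaled to the TMM-normalized library size, and are listed in the order of replicates 1, 2 and 3. The summed level of 12 fibroblast and matrix genes was 12056 CPM in WT replicate 2, between 2116 and 2652 CPM in the other WT libraries and between 2043 and 2987 CPM in the Zeb2 cKO libraries. For 12 macrophage and leukocyte genes the sums were 887 CPM, 206 to 291 CPM and 248 to 264 CPM in the same order. The sum of 15 contractile genes of cardiomyocytes was 37567 CPM in WT replicate 2, against 67954 to 74289 CPM and 60638 to 73356 CPM. All genes of these 3 lists were detected, and every defining cardiomyocyte gene was present in all 6 libraries. Zeb2 itself was at 61.3, 116.05 and 71.9 CPM in WT and at 59.6, 72.6 and 66.5 CPM in Zeb2 cKO, and its log2 fold change of -0.33 (SE 0.25) became -0.0058 without WT replicate 2, so whole-tissue counts give no check of the deletion. In whole tissue, fewer cells of a type and less RNA per cell cannot be told apart.

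None of the 10 genes differed between Zeb2 cKO and WT beyond the spread between replicates. All 10 ranges overlapped between the groups, beside 6.36% of all genes tested whose groups did not overlap. This count rested on Zeb2 cKO replicate 3. Without it, all Zeb2 cKO libraries were above all WT libraries for 5 of the 10 (Fabp3, Acsl1, Cpt2, Acadvl and Hadha) and below them for 0. Of the 14961 genes tested in that fit, 1771 were above and 1605 below, together 22.6%. With a WT library left out, 1 of the 10 did not overlap, namely Cpt1b without replicate 1 (beside 23.0%), Acadl without replicate 2 (15.5%) and Cd36 without replicate 3 (13.2%). The adjusted p was between 0.957 and 0.967 (edgeR quasi-likelihood test, Benjamini-Hochberg over all genes tested), and the 95% interval of each log2 fold change included 0, also without WT replicate 2. Unadjusted p lay between 0.221 and 0.716 in the same edgeR fit. By the same test 0.0% of all genes tested passed an adjusted p of 0.05, while 280 genes (1.9%) had an unadjusted p under 0.05, none of them among the 10. Without WT replicate 1, 1 of the 10 had an unadjusted p under 0.05, beside 1134 of 15075 genes. With the contractile list as a covariate 1 of the 10 had, beside 525 of 14746. In DESeq2, 2 genes passed and 361 had an unadjusted p under 0.05, and none of the 10 was among either. The 2 that passed, Slc46a2 and Mrap2, belong to no list used here and are named after their values were seen. Exact permutation tests of CPM (two-sided) gave p between 0.3 and 1.0 for the 10 genes, where 3 libraries against 3 cannot give a p under 0.1.

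In size, 8 of the 10 genes had a log2 fold change over 0.2 and 0 had one under -0.2, beside 15.9% and 22.6% of all genes tested. Their median was 0.29, against -0.0069 for all genes. Without WT replicate 2, 0 of 10 were over 0.2, beside 14.2% of all genes tested, and the median was 0.039. With another library left out, the count was 8 without WT replicate 1 (beside 26.5% of all genes tested), 9 without WT replicate 3 (21.8%), 7 without Zeb2 cKO replicate 1 (15.4%), 7 without Zeb2 cKO replicate 2 (15.7%) and 8 without Zeb2 cKO replicate 3 (20.6%). Cd36 dropped under 0.2 without Zeb2 cKO replicate 1 and Acadm without Zeb2 cKO replicate 2, while Acadl passed it without WT replicate 3.

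**Figure D1:**
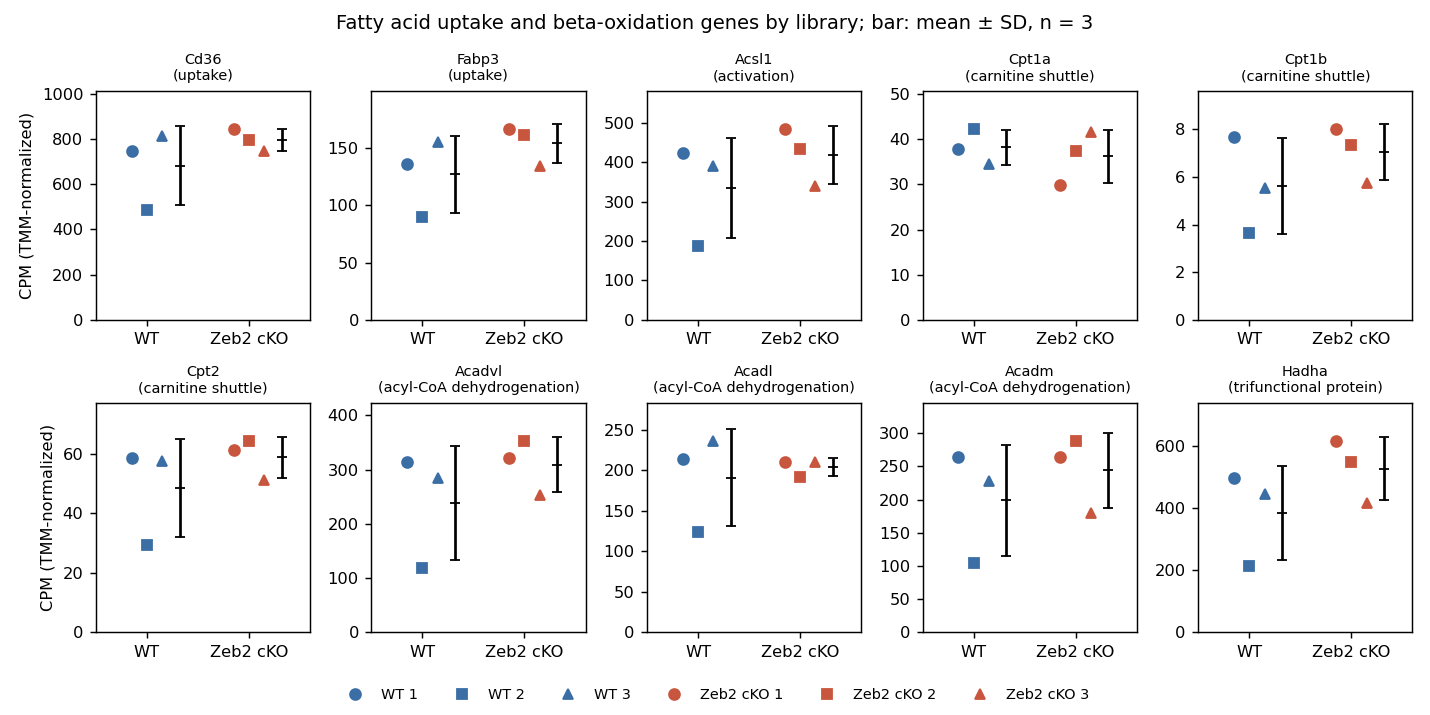
Normalized level of each of the 10 genes in CPM (vertical axis, from 0) in the 3 WT libraries (blue) and the 3 Zeb2 cKO libraries (red), with the mean ± SD of each group as a bar beside its points. WT replicate 2 (blue square) is the lowest of the 6 libraries for 9 genes and the highest for Cpt1a.

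Cd36 (ENSMUSG00000002944, GRCm38 chromosome 5 from 17781690 to 17888801, minus strand) encodes the fatty acid translocase of the plasma membrane. WT replicates 1, 2 and 3 held 747, 485 and 813 CPM of it, and Zeb2 cKO replicates 1, 2 and 3 held 843, 796 and 747 CPM. Only WT replicate 2 was low, and the other 5 libraries lay within a band that both groups shared. The means were 681 ± 173 CPM (SD, n = 3) in WT and 795 ± 48.3 CPM (SD, n = 3) in Zeb2 cKO, with a log2 fold change of 0.22 (SE 0.23, 95% interval -0.33 to 0.78). Without WT replicate 2 it was 0.032 (95% interval -0.25 to 0.31). Cd36 is also made by endothelial cells, adipocytes and macrophages. The summed level of 10 endothelial genes was 459 CPM in WT replicate 2, 645 to 688 CPM in the other WT libraries and 588 to 700 CPM in Zeb2 cKO. The sum of 11 adipocyte genes was 12.3 CPM in WT replicate 2, 25.7 and 28.6 CPM in the other WT libraries and 25.1 to 31.4 CPM in Zeb2 cKO. Of these genes 4 had enough counts to be tested, with a median log2 fold change of 0.89, and without WT replicate 2 the median over 6 tested genes was 0.63. The part of these cell types in the Cd36 counts was not tested.

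Fabp3 (ENSMUSG00000028773, chromosome 4 from 130308595 to 130315463, plus strand) encodes the fatty acid binding protein of heart and skeletal muscle. It was at 136, 89.8 and 155 CPM in WT and at 167, 161 and 135 CPM in Zeb2 cKO. WT replicate 2 was again the lowest, and Zeb2 cKO replicate 3 lay below WT replicates 1 and 3. The means were 127 ± 33.7 CPM (SD, n = 3) and 154 ± 17.2 CPM (SD, n = 3), with a log2 fold change of 0.28 (SE 0.22), or 0.083 without WT replicate 2.

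The counts of Fabp3 are uncertain because 48.8% of its principal transcript recurs at up to 99.3% identity in Fabp3-ps1, a processed pseudogene on chromosome 10. The table gave the pseudogene more counts than the gene, at 190.0, 112 and 207 CPM in WT and 201, 201 and 159 CPM in Zeb2 cKO. Those were between 54.1% and 58.2% of the summed CPM of both in every library, although the annotated pseudogene has 402 bases against 823 in the principal transcript of Fabp3. With both added, the levels were 326, 201 and 363 CPM in WT and 368, 362 and 293 CPM in Zeb2 cKO. The log2 fold change of the sum was 0.20 (SE 0.25) and -0.011 without WT replicate 2, and the sum did not pass the test either (adjusted p = 0.957, edgeR quasi-likelihood test). This sum was computed after the data were seen.

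Acsl1 (ENSMUSG00000018796, chromosome 8 from 46471037 to 46536051, plus strand) encodes the main long-chain acyl-CoA synthetase of heart. It was at 423, 188 and 391 CPM in WT and at 484, 435 and 339.7 CPM in Zeb2 cKO. The level in WT replicate 2 was 46.3% of the mean of WT replicates 1 and 3, and the Zeb2 cKO libraries lay on both sides of those 2. The means were 334 ± 127 CPM (SD, n = 3) and 419 ± 73.5 CPM (SD, n = 3). These gave a log2 fold change of 0.33 (SE 0.32, 95% interval -0.44 to 1.10), which was 0.047 (95% interval -0.33 to 0.42) without WT replicate 2.

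The carnitine step held the single exception to the common pattern. Cpt1a (ENSMUSG00000024900, chromosome 19 from 3322334 to 3385733, plus strand) encodes the carnitine palmitoyltransferase of the outer membrane that prevails in liver and in many non-muscle cells. It was at 37.9, 42.2 and 34.4 CPM in WT and at 29.8, 37.3 and 41.5 CPM in Zeb2 cKO. WT replicate 2 was the highest of the 6 libraries, which held for 35.2% of all genes tested. The log2 fold change was -0.076 (SE 0.16, 95% interval -0.45 to 0.30), and its sign turned without WT replicate 2 (0.0057) and without Zeb2 cKO replicate 1 (0.046).

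Cpt1b (ENSMUSG00000078937, chromosome 15 from 89416405 to 89425863, minus strand) encodes the muscle form of the same enzyme. It was at 7.70, 3.65 and 5.55 CPM in WT and at 8.01, 7.35 and 5.73 CPM in Zeb2 cKO, from counts of 160 to 401 per library. The means were 5.63 ± 2.03 CPM (SD, n = 3) and 7.03 ± 1.17 CPM (SD, n = 3). In the edgeR fit its log2 fold change was 0.32 (SE 0.28), and it was 0.088 without WT replicate 2 and 0.62 without WT replicate 1.

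Cpt1b was below Cpt1a in each library, although it is known as the main form in adult heart muscle. Scaled to the length of the merged exons, the log2 ratio of Cpt1b to Cpt1a was -1.12, -2.35 and -1.45 in WT (mean -1.64 ± 0.64, SD, n = 3). In Zeb2 cKO the log2 ratio was -0.72, -1.16 and -1.68 (mean -1.18 ± 0.48, SD, n = 3). The groups overlapped, and the difference of 0.46 on the log2 scale gave p = 0.5 (exact permutation test, two-sided). Without WT replicate 2 the difference was 0.10, and without WT replicate 1 it was 0.72. The low count of Cpt1b is uncertain, because 94.8% of its principal transcript also belongs to a read-through gene from Chkb into Cpt1b (Gm44502) on the same strand in Gencode M21. That gene has no row in the table, the annotation used for counting (Gencode M4) was not used here, and how reads over 2 genes were treated is not given in the sources used here. The ratio can therefore be compared between libraries but not read as the share of the 2 enzymes.

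Cpt2 (ENSMUSG00000028607, chromosome 4 from 107903981 to 107923610, minus strand) encodes the transferase of the inner membrane, which returns the acyl group to CoA. It was at 58.7, 29.5 and 57.7 CPM in WT and at 61.2, 64.2 and 51.1 CPM in Zeb2 cKO. Zeb2 cKO replicates 1 and 2 lay above all WT libraries, Zeb2 cKO replicate 3 lay below WT replicates 1 and 3, and WT replicate 2 was lowest. The means were 48.6 ± 16.6 CPM (SD, n = 3) and 58.8 ± 6.88 CPM (SD, n = 3), with a log2 fold change of 0.28 (SE 0.27) that was 0.019 (95% interval -0.26 to 0.30) without WT replicate 2.

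Among the acyl-CoA dehydrogenases, Acadvl (ENSMUSG00000018574, chromosome 11 from 70010183 to 70015411, minus strand) acts on very long chains at the inner membrane. It was at 313, 118 and 285 CPM in WT and at 321, 352 and 253 CPM in Zeb2 cKO. WT replicate 2 held 39.6% of the mean of the other WT libraries, the lowest such share of the 10 genes. Its log2 fold change was 0.37 (SE 0.36, 95% interval -0.49 to 1.23), and it was 0.048 without WT replicate 2. Dvl2, on the opposite strand, overlaps 37.0% of the principal transcript of Acadvl. Dvl2 was at 2.16 to 3.32 CPM in the 6 libraries, a small amount beside Acadvl. How strand was counted is not given in the sources used here. Whether reads in the overlap were lost to both genes was not tested.

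Acadl (ENSMUSG00000026003, chromosome 1 from 66830839 to 66863277, minus strand) acts on long chains. It was at 214, 123 and 236 CPM in WT and at 209, 191 and 210.4 CPM in Zeb2 cKO. It was the only one of the 10 whose Zeb2 cKO libraries all lay below WT replicates 1 and 3, while all were above WT replicate 2. Its log2 fold change of 0.094 (SE 0.25) turned to -0.14 (95% interval -0.39 to 0.11) without WT replicate 2.

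Acadm (ENSMUSG00000062908, chromosome 3 from 153922357 to 153944632, minus strand) acts on chains of medium length. It was at 265, 104 and 227 CPM in WT and at 265, 288 and 179 CPM in Zeb2 cKO. The Zeb2 cKO libraries were spread over the whole span of WT replicates 1 and 3 and beyond it on both sides. Its log2 fold change was 0.29 (SE 0.36, 95% interval -0.56 to 1.15), and it was -0.011 without WT replicate 2. Of the 3 dehydrogenases, Acadvl alone kept a positive value in that fit, and none of the 3 differed between the groups by the test.

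Hadha (ENSMUSG00000025745, chromosome 5 from 30118304 to 30155162, minus strand) had the largest log2 fold change of the 10. It was at 496, 213 and 443 CPM in WT and at 614, 548 and 415 CPM in Zeb2 cKO. Zeb2 cKO replicates 1 and 2 were above all WT libraries, and Zeb2 cKO replicate 3 was below WT replicates 1 and 3. The means were 384 ± 151 CPM (SD, n = 3) and 526 ± 101 CPM (SD, n = 3). The log2 fold change was 0.45 (SE 0.34, 95% interval -0.35 to 1.25), and it was 0.17 (95% interval -0.25 to 0.58) without WT replicate 2. It lay between 0.33 and 0.68 when any other library was left out.

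Hadhb, which encodes the beta subunit that completes the trifunctional protein, was at 78.7, 51.4 and 82.6 CPM in WT and at 108, 82.3 and 72.7 CPM in Zeb2 cKO. Its log2 fold change was 0.31 (SE 0.23), and 0.12 without WT replicate 2, so both subunits of the protein gave positive values within their error. Its counts too are uncertain, since 69.7% of the principal transcript recurs at up to 99.8% identity in Gm13910, a processed pseudogene on chromosome 2. Gm13910 was at 222, 137 and 233 CPM in WT and 339, 263 and 219 CPM in Zeb2 cKO, between 72.7% and 76.1% of the sum of both. On the log2 scale and per length of principal transcript, Hadhb alone stood to Hadha at a mean of -1.41 in WT and -1.61 in Zeb2 cKO. Without WT replicate 2 the difference between the groups in this log2 ratio went from -0.21 to -0.044. With Gm13910 added, that mean log2 ratio was 0.51 ± 0.27 (SD, n = 3) in WT and 0.43 ± 0.11 (SD, n = 3) in Zeb2 cKO. Whether Hadhb ranked below or above Hadha thus depended on where these reads were counted.

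**Figure D2:**
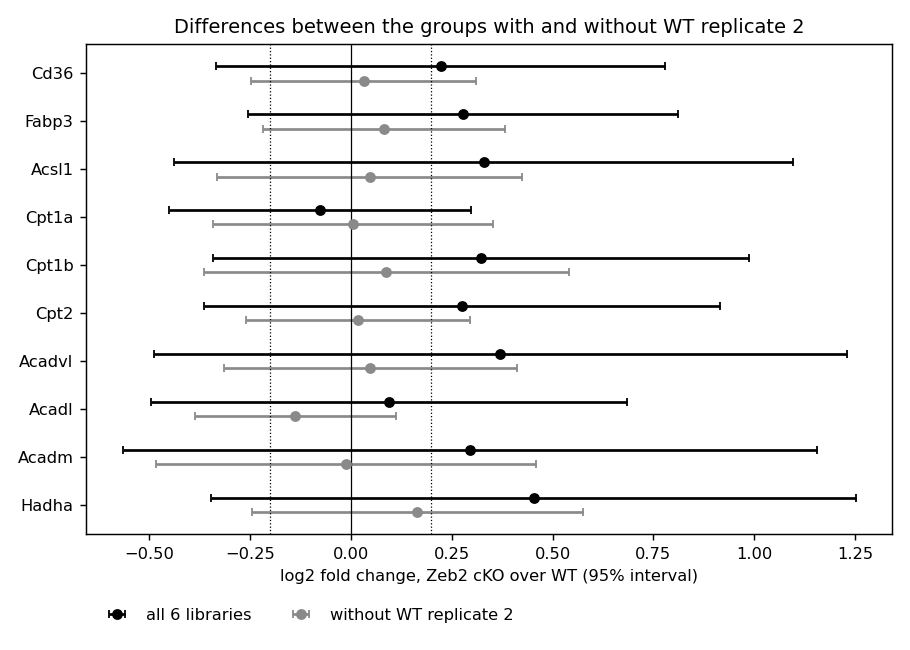
Log2 fold change of Zeb2 cKO over WT (horizontal axis) for the 10 genes, with the 95% interval as a bar, from all 6 libraries (black) and without WT replicate 2 (grey); dotted lines mark 0.2 and -0.2. All intervals include 0, and the grey points lie between -0.14 and 0.17.

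The 10 genes shared a low position of WT replicate 2, with Cpt1a as the exception. The level in WT replicate 2 was the lowest of all libraries for 9 of them, beside 34.6% of all genes tested, and so also below every Zeb2 cKO library. Relative to the mean of WT replicates 1 and 3, WT replicate 2 held a median of 52.9% over the 10 genes. Among the Zeb2 cKO libraries, replicate 3 was the lowest for 8 of the 10, Acadl and Cpt1a being the others. Against WT replicates 1 and 3 alone, the Zeb2 cKO mean came to between 90.7% for Acadl and 112% for Hadha.

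**Figure D3:**
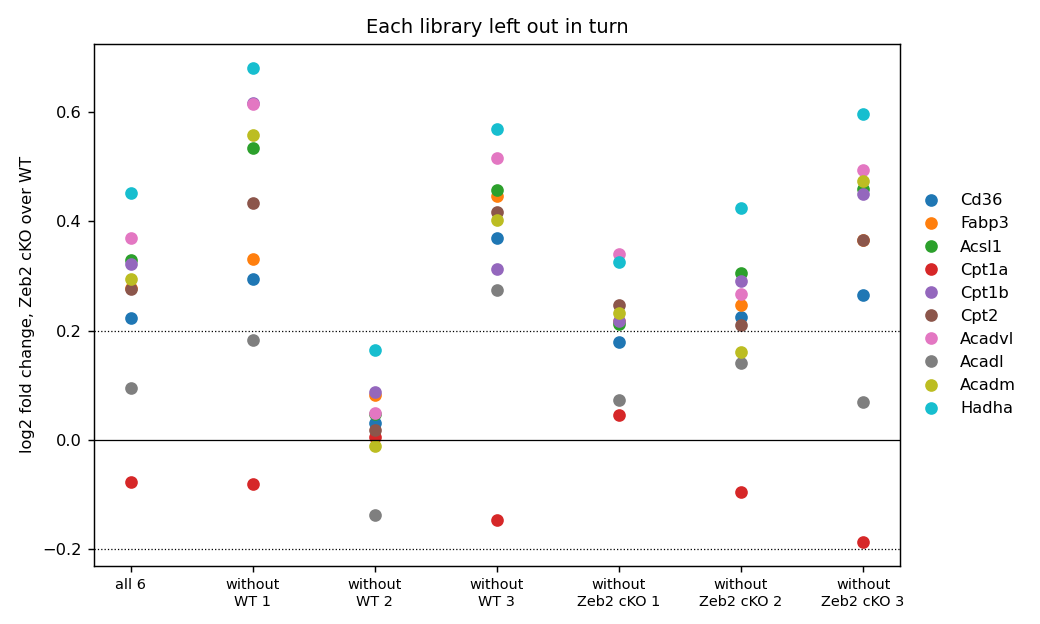
Log2 fold change of Zeb2 cKO over WT (vertical axis) for the 10 genes from all 6 libraries and with each library left out in turn; dotted lines mark 0.2 and -0.2. Without WT replicate 2 the 10 values lie between -0.14 and 0.17, and Hadha is the highest in each column except the one without Zeb2 cKO replicate 1, where Acadvl is.

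The contractile genes of cardiomyocytes moved with them. On the log2 scale, WT replicate 2 differed from WT replicates 1 and 3 by a median of -0.92 over the 10 genes, with a range of -1.34 for Acadvl to 0.23 for Cpt1a. The 15 contractile genes had a median difference of -0.91 (range -1.51 to -0.21), and all genes tested had one of -0.012. Within each library, the mean log2 CPM of the 10 genes minus that of the contractile genes was -3.64, -3.50 and -3.52 in WT and -3.50, -3.42 and -3.46 in Zeb2 cKO. The difference between the groups on this scale was 0.093, where the SD was 0.072 in WT and 0.041 in Zeb2 cKO. Taken as medians over the lists it was -0.0069, with an SD of 0.17 in WT and 0.12 in Zeb2 cKO. With all libraries its sign thus depended on how the lists were summarized. Without WT replicate 2 the difference was positive both ways, at 0.12 from means and 0.084 from medians. In a fit with the contractile list as a covariate, 1 of the 10 genes (Hadha, 0.26) had a log2 fold change over 0.2, beside 12.3% of all genes tested, and with the macrophage list as covariate 0 had, beside 13.1%. The part of cardiomyocyte content in the levels of the 10 genes was not tested beyond these values.

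**Figure D4:**
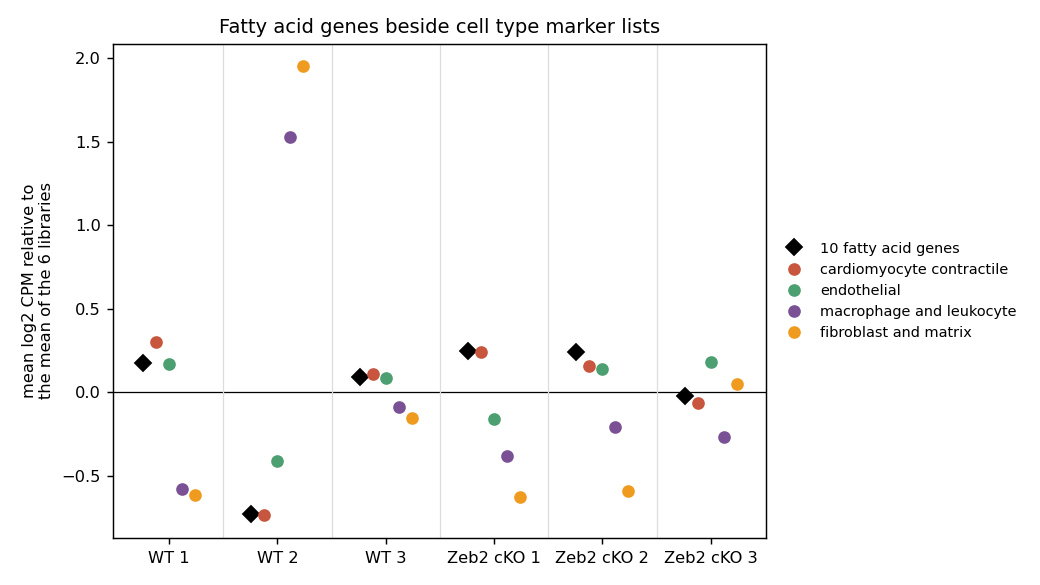
Mean log2 CPM of the 10 fatty acid genes (black diamonds) and of 4 cell type marker lists in each library, relative to the mean of the list over the 6 libraries. In WT replicate 2 the fatty acid genes (-0.73) and the contractile genes (-0.74) are lowest, and the macrophage (1.53) and fibroblast (1.95) lists are highest.

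Levels were also set side by side between genes, as CPM per kb of principal transcript averaged over the 6 libraries. Cd36 (217 CPM per kb) was above Fabp3 (171), which was above Acadvl (126). Cd36 exceeded Fabp3 in 6 of 6 libraries, and Acadvl exceeded the gene after it, Hadha (113), in 5 of 6. The place of Acadvl makes no allowance for reads that its overlap with Dvl2 may have cost. Hadha, Acadm (108), Acadl (103) and Acsl1 (96.7) followed closely. Hadha was above Acadm in 3 of 6 libraries and Acadm above Acadl in 3 of 6, so the order within this cluster did not exceed the spread. Cpt2 (22.6), Cpt1a (8.62) and Cpt1b (2.19) came last, each below the preceding gene in 6 of 6 libraries. The transferases of the carnitine shuttle thus had the lowest counts per length of the 10 in both groups, with the place of Cpt1b uncertain through the read-through gene named above. With the merged exons of all transcripts as length, the order within the cluster became Acadl, Acadm, Hadha. With Fabp3-ps1 added, Fabp3 came to 388 CPM per kb and stood above Cd36.

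**Figure D5:**
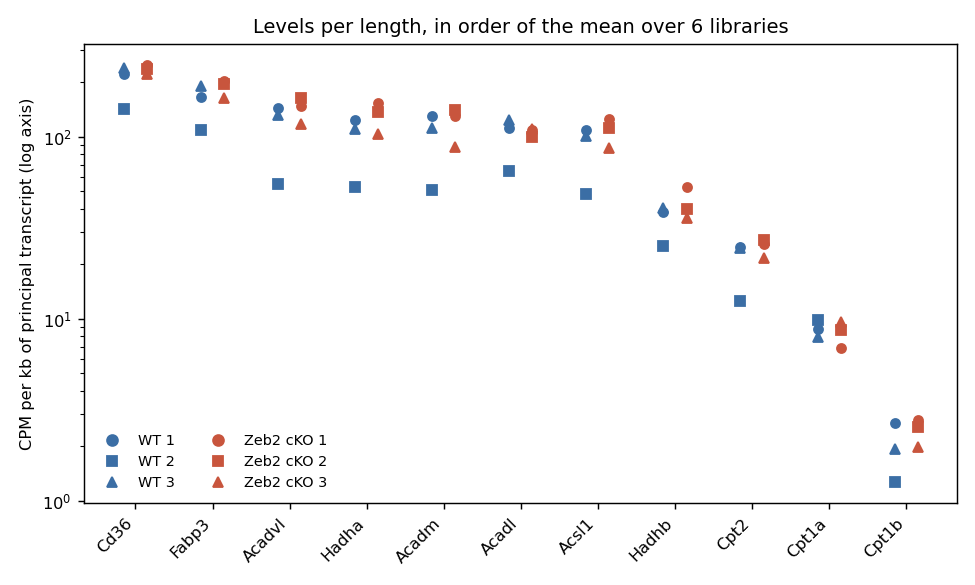
Level per length in CPM per kb of principal transcript (vertical log axis) of the 10 genes and Hadhb in the 3 WT (blue) and 3 Zeb2 cKO (red) libraries, ordered by the mean. Cd36 and Fabp3 lie at the top, and Cpt2, Cpt1a and Cpt1b at the bottom, with Cpt1b near 2.19 CPM per kb.

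Because 9 of the 10 genes were lowest in WT replicate 2, the promoters of the 10 were read for shared letters. The contractile genes were low in that library too, and a part of promoter sequence in this was not tested. RefSeq windows on GRCm38.p6, reaching from 250 bases before a start site to 50 after it, were found for 9 of the 10 genes. The hexamer AGGTCA, which nuclear receptors such as the PPARs bind as a repeat, occurred on either strand in the windows of Cd36, Cpt1a, Acadvl and Acadm and in 16.3% of 32851 windows. The direct repeat of this hexamer with any 1 base between the copies, which holds the hexamer within it, occurred in the windows of 0 of these 9 genes and in 0.0396% of all windows. The 4 stretches with a hexamer are shown to let the neighbouring bases be read, each on the strand of its gene, 5′ to 3′, with the hexamer or its complement in capitals. They lie at chr5:17836095-17836146 (Cd36, minus), chr19:3323183-3323236 (Cpt1a, plus), chr11:70015486-70015539 (Acadvl, minus) and chr3:153944863-153944893 (Acadm, minus).
Cd36: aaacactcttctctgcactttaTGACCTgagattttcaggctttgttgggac
Cpt1a: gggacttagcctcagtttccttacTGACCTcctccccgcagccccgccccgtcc
Acadvl: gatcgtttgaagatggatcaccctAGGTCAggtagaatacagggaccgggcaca
Acadm: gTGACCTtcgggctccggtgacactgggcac

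The hexamer of Acadvl began 87 bases before its start and that of Cpt1a 94 bases before. Those of Cd36 and Acadm lay farther out, at 228 and 249 bases.

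CACCTG, the E-box to which ZEB proteins bind, was in the windows of Acsl1 and Cpt2 and in 20.2% of all windows. In Cpt2 it began 104 bases before the start (chr4:107923664-107923717, minus strand), and in Acsl1 it was in the window of a start inside the gene, 238 bases before it (chr8:46490716-46490757, plus strand). Both are shown, since the deleted factor is known to bind such letters, with the E-box or its complement in capitals.
Cpt2: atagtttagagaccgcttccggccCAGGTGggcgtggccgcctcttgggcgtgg
Acsl1: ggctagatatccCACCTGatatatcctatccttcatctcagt
The log2 fold changes of these genes, 0.28 for Cpt2 and 0.33 for Acsl1, lay inside the range of the other 8. A match of letters is not a site of binding, and none was measured here.

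Hadha and Hadhb point away from each other on chromosome 5, with start sites at 30154980 and 30155253, 273 bases apart. The stretch before the first annotated exon of Hadha (chr5:30155163-30155230, minus strand) is shown because it serves as the upstream sequence of both genes, with a GC box, GGGCGG or its complement, in capitals.
Hadha: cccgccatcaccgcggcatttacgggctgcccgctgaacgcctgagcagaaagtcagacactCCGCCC
A GC box was in the windows of Cd36, Acsl1, Cpt1a, Cpt2, Acadl and Hadha and in 35.7% of all windows.

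The wider pathway was read from 44 further genes in 5 lists. In the all-library fit, 19 of the 44 had a log2 fold change over 0.2, beside 15.9% of all genes tested, and 3 had one under -0.2, beside 22.6%. An unadjusted p under 0.05 was found for 0 of the 44, beside 1.9%. It was found for 1 of the 44 without WT replicate 1 (beside 1134 of 15075 genes) and without WT replicate 2 (393 of 14966). The same held with the contractile (525 of 14746) and the macrophage list as covariate (383 of 14746). The median of the 44 in the all-library fit was 0.19. Without WT replicate 2, 4 of 44 were over 0.2 (beside 14.2%) and 4 under -0.2 (beside 11.7%), and the median was 0.0050. Without WT replicate 1, 32 were over 0.2, beside 26.5% of all genes tested. The same shares of all genes, 15.9% and 22.6% with all libraries and 14.2% and 11.7% without WT replicate 2, stand beside the counts of each list below.

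In the spiral itself and its electron transfer, 10 of 16 genes were over 0.2 and 0 under -0.2, with a median of 0.24. These were 0 and 1 of 16 without WT replicate 2, with a median of 0.0038. Acaa2, the last thiolase of the round, had the largest value of this list (0.43, SE 0.38, and 0.10 without WT replicate 2), and Etfa, which takes up electrons from the dehydrogenases, had the smallest (-0.0070, SE 0.21, and -0.20 without it). Among peroxisomal genes, 4 of 8 were over 0.2 and 0 under -0.2, and 2 and 0 without WT replicate 2. The largest value there was that of Abcd2, a transporter of very long chains (0.41, SE 0.30). Unlike the 10 genes other than Cpt1a, Abcd2 had a larger value without WT replicate 2. It was 0.66 there (95% interval 0.024 to 1.30, adjusted p = 0.9997 from the edgeR quasi-likelihood test). Acaa1a, a thiolase, had the smallest (-0.026, SE 0.20, and -0.16 without WT replicate 2). Ehhadh, the peroxisomal bifunctional enzyme, was the 1 gene of the 44 whose groups did not overlap, beside 6.36% of all genes tested, and it is named for that reason after its values were seen. It was at 4.99, 2.92 and 4.58 CPM in WT and at 5.40, 5.69 and 5.40 CPM in Zeb2 cKO. Its log2 fold change was 0.40 (SE 0.21), and 0.20 (95% interval -0.079 to 0.48) without WT replicate 2, with an adjusted p of 0.957 (edgeR quasi-likelihood test).

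Upstream of the mitochondrion, 2 of 8 genes of uptake and transport were over 0.2 and 0 under -0.2, and 1 and 2 without WT replicate 2. Slc27a6, a fatty acid transporter, had the largest value of this list (0.88, SE 0.55, and 1.08 without WT replicate 2) from a level of at most 0.40 CPM. Lpl, the lipase that frees fatty acids from lipoproteins, had the smallest (0.013, SE 0.29), and it was -0.24 without WT replicate 2. Of the 5 acyl-CoA synthetases, 1 was over 0.2 (Acsm5, 0.52, SE 0.77, and 0.041 without WT replicate 2) and 2 were under -0.2, of which Acsl5 (-0.34, SE 0.23) was lower. Acsl5 was at 11.9, 21.8 and 13.6 CPM in WT and at 12.1, 12.5 and 13.0 CPM in Zeb2 cKO. Unlike Acsl1, it was highest in WT replicate 2, and its value without that library was -0.030. In that fit 1 of the 5 synthetases (Acsl3, 0.22) was over 0.2 and 0 were under -0.2. Of 7 genes of the carnitine shuttle and its control by malonyl-CoA, 2 were over 0.2 and 1 was under -0.2, and 0 and 1 without WT replicate 2. The carnitine acetyltransferase Crat was the largest there (0.27, SE 0.27, and 0.018 without WT replicate 2). Cpt1c, a form known from neurons, was the smallest (-0.31, SE 0.34), and its sign turned without WT replicate 2 (0.17). Cpt1c, like Cpt1a, was highest in WT replicate 2.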

How the data were processed

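Each of the 6 libraries was assigned to WT or Zeb2 cKO from its label, and 0 columns of the table were left unmatched. The authors deposited raw counts per gene, without normalization; according to the methods, ribosome-depleted stranded libraries were aligned and counted with a STAR workflow on Gencode M4 (GRCm38). The strand option, the treatment of reads with several matches and the STAR version are not given in the sources used here. The authors' differential expression used DESeq, which was not run here.

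The 10 genes and all lists were chosen with earlier results of these data known. Symbols, coordinates and exon lengths came from Gencode M21 by gene identifier, and promoter windows from RefSeq. Counts were normalized with TMM and filtered with filterByExpr in edgeR 4.0.16 (R 4.3.3). Genotype was tested with glmQLFit and glmQLFTest, with a prior count of 0.125 for fold changes and Benjamini-Hochberg adjustment over all genes kept. Single values were compared with exact permutation tests (Python 3.11.15). Shared transcript sequence was searched with BLAST 2.17.0 at 95% identity or more over at least 75 bases. The 0.2 cutoff on the log2 scale is that of the study. The steps were tested on simulated data.

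All 10 genes are named. Of the 44 further pathway genes, the one with the largest and the one with the smallest log2 fold change of each list are named. Hadhb, Ehhadh and Acsl3 are named besides. Depth was between 37288174 and 51136331 counts per library, of which 60.55% to 67.03% came from mitochondrially encoded genes. Between 14301225 and 19024394 counts per library lay outside those genes. In every library 9 of the 10 genes had at least 1000 counts. The spread between libraries thus set the precision, with a common biological coefficient of variation of 0.243. Alternatives were DESeq2 1.42.0, RLE size factors, no filter, no mitochondrially encoded genes, marker lists as covariates, the replicate number as a block, each library left out, and, chosen after seeing the data, pseudogene counts added and principal transcript length.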

Additional observations from a re-analysis of the deposited data

How the results depend on the processing

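Of 224 recomputed values, 209 kept their direction and stayed on the same side of their threshold or within their spread. The 0.2 cutoff was no such threshold for single genes. Hadha, at 0.45, was among the 209 with its value of 0.17 without WT replicate 2. So was the median of the 10 genes, which fell from 0.29 to 0.039 without that library, within a spread of 0.45. The count of the 10 genes over 0.2 went from 8 to 1 with the cardiomyocyte covariate and to 0 with the macrophage covariate, and ran from 0 (without WT replicate 2) to 9 with 1 library left out. The count of the other 44 pathway genes over 0.2 went from 19 to 5 and to 3 with these covariates, and ran from 4 to 32 with 1 library left out. Genes called higher over the whole table went from 0 to 2 in DESeq2. Acadl turned negative with the cardiomyocyte (-0.025) and the macrophage covariate (-0.11). With 1 library left out, Acadl ran from -0.14 to 0.27, Acadm from -0.011 to 0.56 and Cpt1a from -0.19 to 0.046. The difference between the 10 genes and the contractile genes went from 0.093 to -0.0069 as a median. The cause was not tested in any of these.

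Replicate numbers occur in both groups, but the labels do not say that they mark a shared litter or day. Deviations from the group means correlated at 0.088, -0.137 and -0.087 between equal numbers and at -0.263 to 0.238 between unequal numbers. With 3 libraries per group, these values cannot show whether equal numbers share more than a number. With a replicate block, 8 of the 10 genes were again over 0.2 (beside 18.0% of all genes tested), the median was 0.35, 26 of 44 other pathway genes were over 0.2 and 0 genes were called. The 10 genes ranged from -0.085 (Cpt1a) to 0.52 (Hadha) in that fit. With 3 libraries per group, intervals as wide as those of Acadvl or Hadha do not separate a small difference from none.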
